A study of Mus musculus with 4 samples.

Results

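Genes of the transforming growth factor beta (TGF-beta) and bone morphogenetic protein (BMP) family were followed through 4 bulk RNA sequencing libraries of mouse liver tumour. They were chosen by symbol alone, as the ligands, receptors, SMADs, latent TGF-beta binding proteins and secreted antagonists of the family, which gave 61 of the 48526 genes in the count tables. Of these, 46 passed the filter on low counts and 15 did not, and 1 of the 15, Gdf1, which shares a locus with Cers1 so that its reads may have been left uncounted, had 0 reads in every library. All mice were C57BL/6 and received a methionine- and choline-deficient diet, which produces fatty liver, for 2 weeks, and then an implant into the liver of RIL-175 mouse hepatoma cells carrying luciferase. The AKK group (2 libraries) was given 5000000000 colony-forming units of Akkermansia muciniphila, a mucin-degrading gut bacterium, by mouth starting 2 weeks before the diet; it went on during the diet and, after 6 days of rest from surgery, until harvest. The PBS group (2 libraries) was given phosphate-buffered saline on the same schedule as far as the labels say. The tumour grows from a single implanted cell line in a host that keeps its own liver, stroma and immune cells, so each library mixes line and host. The labels call the libraries biological replicates but do not say whether each came from its own mouse, so p-values measure only the spread between these libraries.

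Ligands of this family are secreted dimers that assemble a complex of type I and type II receptor kinases. Receptors of TGF-beta and activin phosphorylate SMAD2 and SMAD3, those of BMPs phosphorylate SMAD1, SMAD5 and SMAD9, and both branches share SMAD4, while SMAD6 and SMAD7 inhibit signalling. TGF-beta is stored in the matrix in a latent complex, and in the liver it is known for activating stellate cells and driving fibrosis, whereas BMPs are known for setting hepcidin and iron levels.

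The libraries held 48912489 to 59027227 reads on genes. Levels are given as CPM, the read count scaled to a common library size with TMM factors. Marker genes of other cell types differed between the libraries. The 20 hepatocyte markers summed to 1.86 CPM in PBS 1 and 3.89 in PBS 2, while AKK 1 reached 654 and AKK 2 166. All 20 were higher in both AKK libraries, where 26.7% of all genes tested were. Apoc3, Cyp3a11, Hpd, Pck1, G6pc and Bhmt were at 0 in PBS 1, and none of the 20 was at 0 elsewhere. These 6, among others of the 20, passed the filter through their AKK reads alone, so their direction was fixed. Fibroblast and stellate cell markers, 18 genes, summed to 2590 and 1085 CPM in PBS and 1422 and 2028 in AKK, with 0 genes at 0, and their median log2 fold change was -0.88, or 0.27 without PBS 1. Endothelial markers, 18 genes, summed to 276 and 192 in PBS and 121 and 121 in AKK. Of the 17 tested, 11 were lower in both AKK libraries, where 24.7% of all genes were. Clec4g, of liver sinusoids, was below the filter, with 0 reads in each PBS library and 30 and 5 in AKK. On the same list, only AKK reads took Stab2 past the filter, so its direction was fixed. It lay higher in both AKK libraries, while Oit3 and Fcgr2b overlapped. Lyve1 lay lower in both, at 8.98 and 3.28 CPM in PBS and 3.08 and 0.993 in AKK. Skeletal muscle markers, 12 genes, summed to 368 CPM in PBS 1 and 5.71 to 14.7 in the others. The 13 epithelial and hepatoma markers summed to 5443 and 9100 CPM in PBS and 9194 and 10463 in AKK, with 0 at 0. Single members differed, with 3 higher and 4 lower in both AKK libraries, where 26.7% and 24.7% of all genes were. The keratin Krt8 read 1443 to 2632 CPM in the 4 libraries, while Krt7 read 126 CPM in PBS 2 and 1.07 to 5.00 in the others. How far these differences in make-up enter the results below was not tested, and fewer cells of a type cannot be told apart in bulk RNA from less RNA per cell.

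No member of the family passed the threshold in edgeR's quasi-likelihood test (adjusted p under 0.05 over 17479 genes, n = 2 per group), where 0.00572% of all genes did. The smallest adjusted p among members was 0.192. At an unadjusted p under 0.05, 3 members lay higher in AKK (6.52% of the 46, against 6.7% of all genes) and 5 lower (10.9%, against 8.62%), both near the background. DESeq2, the alternative test, called 5 members, which is 10.9% of the 46 against 5.02% of all genes. Of these, 3 were higher, where 2.04% of all genes were, and 2 lower, where 2.98% were. Among the 3 is Inhbe, which passed the filter through its AKK reads alone and so had to lie higher, so these counts are a description. The members' median log2 fold change was -0.13, against 0.02 over all genes. Both AKK libraries lay below both PBS libraries in 14 members (30.4%, against 24.7% of all genes) and above them in 7 (15.2%, against 26.7%), and 25 overlapped, so 21 separated in either direction where 51.4% of all genes did. An exact permutation test of 2 against 2 libraries cannot give a p under 0.333, so this separation is a description.

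**Figure D1:**
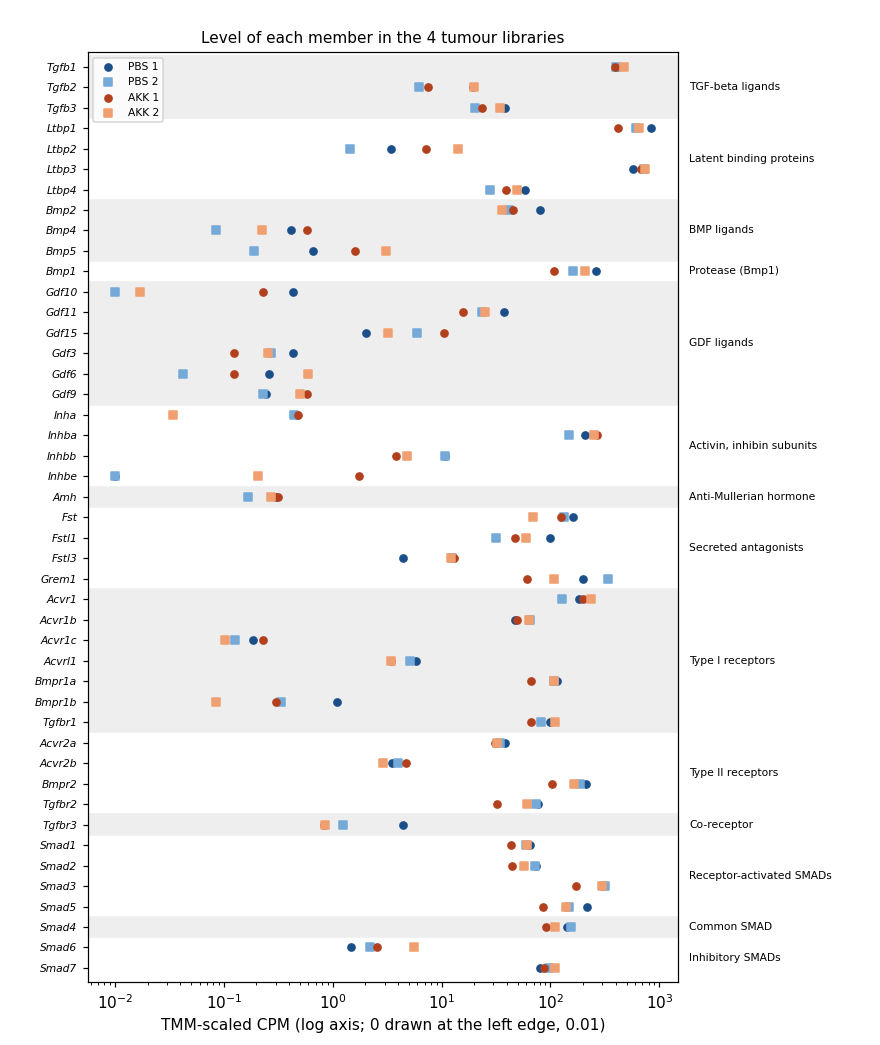
Each row is 1 of 45 members that passed the filter, grouped by role, and each point is 1 library (blue PBS, orange AKK) on a log axis of TMM-scaled CPM, with 0 drawn at 0.01. The family spans from Tgfb1, Ltbp1 and Ltbp3 with the highest CPM to ligands such as Gdf10 near 0, and in 24 rows the blue and orange points overlap.

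The 5 members that DESeq2 called were the BMP antagonist Grem1 and the activin beta B subunit Inhbb, lower in AKK, and the latent TGF-beta binding protein Ltbp2, the ligand Bmp5 and the hepatic activin subunit Inhbe, higher in AKK. Their upstream sequences are given here because these are the members called by that test. Each line holds the 250 bases before the gene's start in RefSeq, matched by symbol (43 of the 61 members matched). Capitals mark matches on either strand to CAGAC (reverse complement GTCTG), the SMAD box, or to GGCGCC, a GC-rich SMAD site that reads the same on both strands. TATAAA (reverse complement TTTATA) was searched as well and had 0 matches in the 5.
Grem1, GRCm38.p6 chr2:113758649-113758898, minus strand: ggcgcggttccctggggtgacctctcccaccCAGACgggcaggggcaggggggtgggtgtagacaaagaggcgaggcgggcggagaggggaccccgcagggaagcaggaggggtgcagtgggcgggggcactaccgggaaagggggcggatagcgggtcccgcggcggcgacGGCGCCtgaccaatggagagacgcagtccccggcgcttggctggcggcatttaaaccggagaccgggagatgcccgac
Inhbb, GRCm38.p6 chr1:119422249-119422498, minus strand: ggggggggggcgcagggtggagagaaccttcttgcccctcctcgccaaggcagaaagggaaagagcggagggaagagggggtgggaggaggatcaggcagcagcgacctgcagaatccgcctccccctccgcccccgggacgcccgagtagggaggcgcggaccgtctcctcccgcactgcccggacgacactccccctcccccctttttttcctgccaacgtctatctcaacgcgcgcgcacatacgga
Ltbp2, GRCm38.p6 chr12:84876492-84876741, minus strand: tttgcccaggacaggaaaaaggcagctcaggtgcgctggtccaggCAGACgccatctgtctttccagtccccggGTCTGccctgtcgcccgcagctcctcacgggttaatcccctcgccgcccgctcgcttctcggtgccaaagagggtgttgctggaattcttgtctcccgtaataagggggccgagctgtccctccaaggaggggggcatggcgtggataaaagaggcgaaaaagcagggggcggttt
Bmp5, GRCm38.p6 chr9:75775115-75775364, plus strand: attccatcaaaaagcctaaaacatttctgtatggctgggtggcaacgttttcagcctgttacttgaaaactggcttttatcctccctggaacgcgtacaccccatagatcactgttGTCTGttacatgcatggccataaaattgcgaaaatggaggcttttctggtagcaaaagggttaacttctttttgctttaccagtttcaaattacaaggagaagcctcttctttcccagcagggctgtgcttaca
Inhbe, GRCm38.p6 chr10:127351849-127352098, minus strand: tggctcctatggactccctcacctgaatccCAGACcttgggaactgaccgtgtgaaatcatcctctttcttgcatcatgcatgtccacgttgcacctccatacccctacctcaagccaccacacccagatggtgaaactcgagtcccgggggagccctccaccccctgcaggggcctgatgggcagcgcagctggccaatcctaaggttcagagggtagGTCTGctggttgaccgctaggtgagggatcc
In this window CAGAC matched 1 time for Grem1 (219 bases before the start), 2 times for Ltbp2 (205 and 176), 1 time for Bmp5 (134) and 2 times for Inhbe (220 and 31), and 0 times for Inhbb. GGCGCC matched in Grem1 only, 78 bases before the start, and no marked match overlaps another. Of 32851 RefSeq promoters, 42.2% hold CAGAC, 9.59% GGCGCC and 12.4% TATAAA in the same window, so members of both directions carry the commonest of these motifs, as do many genes. The base composition ranged from 42.8% G and C upstream of Bmp5 to 72.0% upstream of Grem1.

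**Figure D2:**
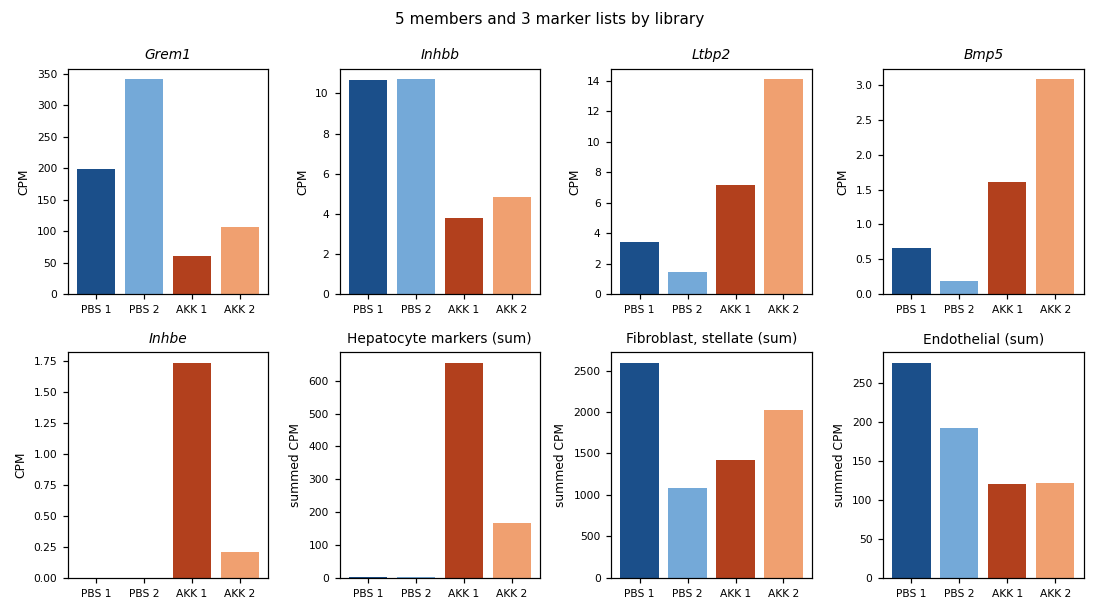
Bars give the TMM-scaled CPM of the 5 members called by DESeq2 and the summed CPM of 3 marker lists in each library, each panel with its own axis from 0. Grem1 and Inhbb are lower and Ltbp2 and Bmp5 higher in both AKK libraries, and Inhbe follows the hepatocyte markers, highest in AKK 1 and near 0 in PBS.

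None of the 3 TGF-beta ligands separated the groups. Tgfb1, the main form in injured liver, read 405 and 400.3 CPM in PBS 1 and PBS 2 and 392 and 469 in AKK 1 and AKK 2. The groups overlapped, with AKK 1 the lowest and AKK 2 the highest of the 4 (log2 fold change 0.10, SE 0.22, edgeR adjusted p = 0.85). Tgfb2 read 19.4 and 6.20 CPM in PBS and 7.48 and 19.9 in AKK, so each group held 1 high and 1 low library. Tgfb3 read 38.3 and 20.3 CPM in PBS and 23.5 and 34.5 in AKK, in the same pattern. Per kilobase of exon, a scale on which genes can be compared, Tgfb1 was the highest of all 46 members at a mean of 82.6 CPM per kb, against 8.61 for Tgfb3 and 2.29 for Tgfb2. It made up 84.6 and 91.8% of the 3 ligands' length-scaled level in PBS and 90.4 and 87.2% in AKK.

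The latent TGF-beta binding proteins hold the latent ligand in the matrix, except that LTBP2 does not bind it covalently and is known from elastic fibres. Ltbp3 and Ltbp1 followed Tgfb1 in length-scaled level, at means of 74.7 and 58.9 CPM per kb. Ltbp1 read 835 and 616 CPM in PBS and 417 and 649 in AKK, with the AKK libraries on either side of PBS 2. Ltbp3 read 571 and 721 CPM in PBS and 676 and 741 in AKK, and Ltbp4 58.6 and 27.9 against 39.4 and 49.8, both overlapping. Ltbp2, low in length-scaled level at a mean of 0.799 CPM per kb, stood apart from these. It read 3.43 and 1.45 CPM in PBS and 7.18 and 14.1 in AKK, higher in 2 of 2 AKK libraries (log2 fold change 2.12, SE 0.57, 4.35-fold). Its edgeR adjusted p was 0.228 and its DESeq2 adjusted p was 0.00594. With 1 library left out, the edgeR log2 fold change was 2.87 without PBS 1 (adjusted p = 0.0312), 1.61 without PBS 2 (0.282), 2.53 without AKK 1 (0.615) and 1.55 without AKK 2 (0.262). Bmp1, which despite its symbol is a procollagen protease and also releases latent TGF-beta from LTBP1, read 261 and 160.0 CPM in PBS and 108 and 207 in AKK and overlapped.

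**Figure D3:**
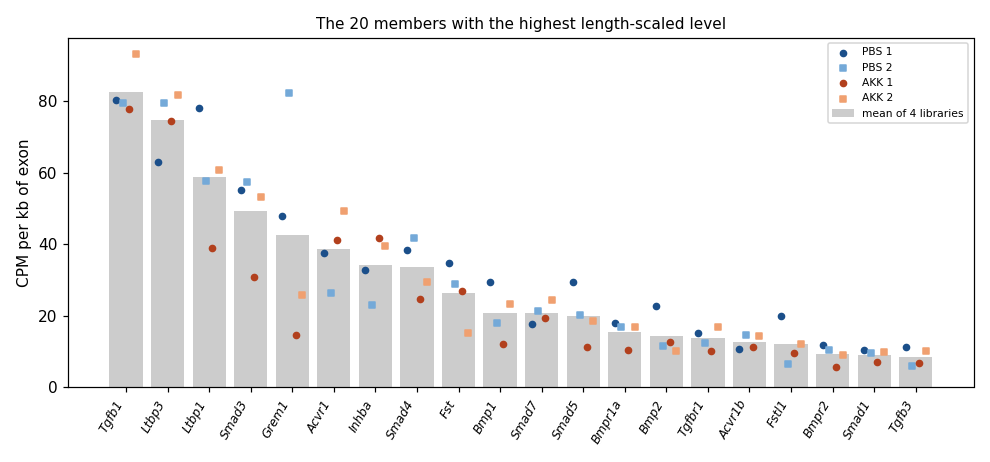
Grey bars give the mean over 4 libraries of CPM per kilobase of exon for the 20 members with the highest mean, and points give each library. Tgfb1, Ltbp3 and Ltbp1 lead, and the points of Grem1 split by group, with both PBS libraries above both AKK libraries.

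Of 10 BMP ligands, 3 passed the filter. Bmp2, the ligand that liver endothelium makes to set hepcidin, was by far the most abundant, with 80.5 and 41.5 CPM in PBS and 45.2 and 35.9 in AKK. PBS 1 was high and the other libraries were close, so the groups overlapped (log2 fold change -0.59, SE 0.34, edgeR adjusted p = 0.442), and without PBS 1 the log2 fold change was -0.04. Bmp5 read 0.656 and 0.189 CPM in PBS and 1.61 and 3.08 in AKK, higher in 2 of 2 AKK libraries (log2 fold change 2.46, SE 0.74, edgeR adjusted p = 0.249, DESeq2 adjusted p = 0.0416). With 1 library left out the log2 fold change ranged from 1.81 without PBS 2 to 3.62 without PBS 1, and it was 2.85 without AKK 1 and 1.91 without AKK 2. This rests on few reads, 35 and 9 in PBS against 91 and 180 in AKK. The unstranded counts for Bmp5, from which reads shared with a gene on the other strand are dropped, held 30.5% as many, 16 and 1 in PBS and 14 and 65 in AKK, so there the groups overlapped. Bmp4 lay under 0.6 CPM in each library and overlapped.

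The 7 BMP ligands below the filter had 0 to 19 reads per library. Bmp6, the other hepcidin-setting ligand of liver endothelium, had 6 and 7 PBS reads and 5 in each AKK library, and Bmp7 had 19 and 4 against 5 and 1. Bmp3, Bmp8a and Bmp8b had 0 to 5 reads per library. Bmp10, a circulating ligand made by hepatic stellate cells and the heart, had 0 reads in each PBS library, 8 in AKK 1 and 1 in AKK 2. Gdf2 (BMP9), its partner from stellate cells, had 22 reads in AKK 1, 4 in AKK 2, 1 in PBS 1 and 0 in PBS 2. Both had their reads mainly in AKK 1, the library with the most hepatocyte marker reads. A count of 0 allows up to 3 reads, 0.0514 to 0.0631 CPM here, and this floor covers counting error only.

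The other growth and differentiation factors were low, and none had an unadjusted edgeR p under 0.05. Gdf11, the most abundant in CPM, read 37.4 and 23.4 CPM in PBS and 15.8 and 25.0 in AKK. The stress-induced ligand Gdf15, which acts on the brainstem receptor GFRAL, read 2.02 and 5.99 CPM in PBS and 10.5 and 3.20 in AKK, a spread within each group that exceeded the difference between them. Gdf9, an oocyte factor, read 0.244 and 0.231 CPM in PBS and 0.584 and 0.497 in AKK, higher in both but at an edgeR adjusted p of 0.359. Gdf3, Gdf6 and Gdf10 stayed under 0.6 CPM. Gdf5 and Gdf7 had 0 to 3 reads per library. The ovarian and embryonic members Nodal and Bmp15 had 0 to 7 reads, and the anti-Mullerian hormone gene Amh read 0.168 to 0.318 CPM.

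Activin and inhibin subunits lay in different directions. Activins are dimers of beta subunits, which inhibin alpha converts into antagonists. Inhba, the activin A subunit and the most abundant of the 5, read 209.8 and 148 CPM in PBS and 267 and 252 in AKK, higher in 2 of 2 AKK libraries (log2 fold change 0.54, SE 0.24, edgeR adjusted p = 0.353). Inhbb, the activin B subunit, read 10.7 and 10.7 CPM in PBS and 3.80 and 4.85 in AKK, lower in 2 of 2 (log2 fold change -1.31, SE 0.31, 2.47-fold lower, edgeR adjusted p = 0.203, DESeq2 adjusted p = 0.00295). The libraries of each group lay close together, and the edgeR log2 fold change ranged from -1.50 to -1.14 when each library was left out in turn. Inha stayed under 0.5 CPM in each library, with AKK 2 low at 0.0343.

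Inhbe and Inhbc encode the activin E and C subunits, which hepatocytes make, and they are neighbours with 0 protein-coding genes between them in the GRCm38.p6 annotation of RefSeq. Inhbe had 0 reads in each PBS library, 98 in AKK 1 and 12 in AKK 2, or 1.73 and 0.206 CPM. Against a floor of 3 reads in each PBS library, its mean in AKK was at least 16.3-fold higher (edgeR adjusted p = 0.218, DESeq2 adjusted p = 0.00254). Since its AKK reads alone took it past the filter, it had to lie higher there, and without AKK 1 it did not pass the filter. Inhbc, below the filter, had 43 reads in AKK 1, 1 in AKK 2, 0 in PBS 1 and 1 in PBS 2. Both were highest in AKK 1, as were the summed hepatocyte markers (654 CPM against 166 in AKK 2).

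Among the secreted antagonists, Grem1 had the smallest p. Gremlin 1 binds BMP2, BMP4 and BMP7 and is known from fibroblasts of fibrotic tissue and tumours. It read 199 and 341 CPM in PBS and 60.9 and 107 in AKK, lower in 2 of 2 AKK libraries (log2 fold change -1.68, SE 0.38, 3.21-fold lower). Its edgeR adjusted p was 0.192, the smallest of the members, and its DESeq2 adjusted p was 0.00155. With 1 library left out, the edgeR log2 fold change was -2.02 without PBS 1 (adjusted p = 0.0189), -1.27 without PBS 2 (0.213), -1.33 without AKK 1 (0.615) and -2.15 without AKK 2 (0.155). Of the 17 fibroblast and stellate cell markers tested, 7 lay lower in both AKK libraries, as Grem1 did, where 24.7% of all genes did. The 2 that lay higher in both were Lrat and Ecm1, where 26.7% of all genes did. The 7 include Fap, a marker of activated fibroblasts, at 9.32 and 4.60 CPM in PBS and 2.00 and 1.18 in AKK, and also Pdgfra, Pdgfrb, Thy1, Reln, Postn and Lrrc15. The collagens Col1a1, Col1a2 and Col3a1, which make up much of the summed level, overlapped. Acta2, on the same list, read 21.7 and 21.5 CPM in PBS and 21.4 and 52.5 in AKK and overlapped too. The part of fibroblasts in the Grem1 value was not tested.

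Follistatin (Fst), which neutralises activins, read 159.5 and 133 CPM in PBS and 124 and 69.3 in AKK, lower in 2 of 2 AKK libraries but at an edgeR adjusted p of 0.404. The length-scaled ratio of Inhba to Fst, chosen after the values were seen, was 0.945 and 0.80 in PBS and 1.54 and 2.61 in AKK. Fstl3, a further activin antagonist, read 4.44 and 12.5 CPM in PBS and 13.04 and 12.1 in AKK, with PBS 1 alone low. Its unstranded counts held 21.3% as many reads, and how reads of an overlapping gene enter its value was not tested. Fstl1, a matrix glycoprotein of fibroblasts, read 98.1 and 31.8 CPM in PBS and 46.9 and 59.6 in AKK. The BMP antagonist noggin (Nog) had 17 reads in PBS 1 and 0 in each other library.

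**Figure D4:**
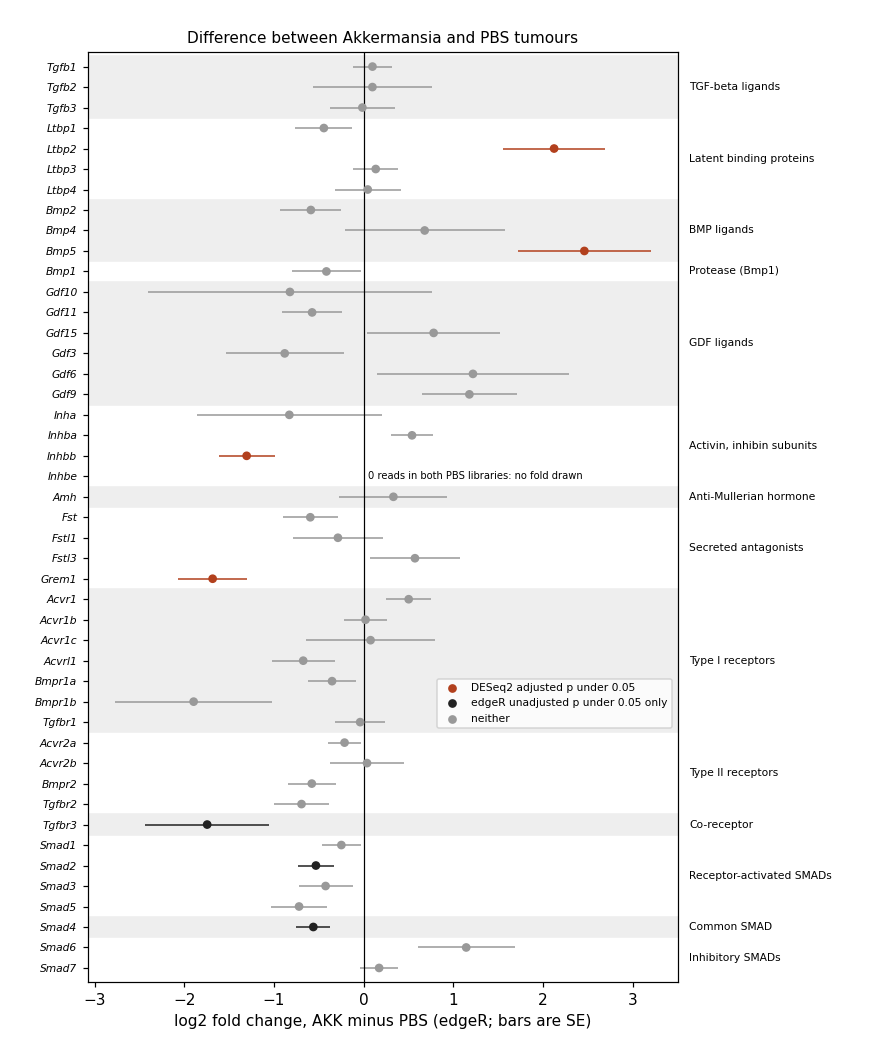
Points give the edgeR log2 fold change (AKK minus PBS) of 44 members with bars of 1 SE, coloured by the tests passed. Inhbe, with 0 reads in both PBS libraries, has no fold drawn. Bmp5 and Ltbp2 lie farthest to the right and Bmpr1b, Tgfbr3 and Grem1 farthest to the left.

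Of 19 receptors and SMADs that passed the filter, 0 passed edgeR or DESeq2. In 10 of the 19, both AKK libraries lay below both PBS libraries, as they did in 24.7% of all genes. This group was put together after the values were seen. AKK 1 was the lower AKK library in 12 of the 14 members that lay below both PBS libraries, or 85.7%, against 71.8% over all such genes.

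Of the type I receptors, the TGF-beta receptor Tgfbr1 read 99.7 and 81.9 CPM in PBS and 66.7 and 109.8 in AKK and overlapped. Acvr1 (ALK2), a BMP and activin receptor, was the most abundant of its class, with 182 and 127 CPM in PBS and 199 and 238 in AKK, higher in both (log2 fold change 0.50, SE 0.25, edgeR adjusted p = 0.388). Bmpr1a read 114 and 107 CPM in PBS and 66.1 and 107 in AKK, with AKK 1 alone low. Acvrl1 (ALK1), the endothelial receptor of BMP9 and BMP10, read 5.87 and 5.11 CPM in PBS and 3.41 and 3.46 in AKK, lower in both (edgeR adjusted p = 0.406). The summed endothelial markers were likewise lower in both AKK libraries, and the part of these cells in the Acvrl1 value was not tested. Bmpr1b was low, with 1.11 and 0.336 CPM in PBS and 0.301 and 0.0856 in AKK. Acvr1b overlapped at 46.9 to 64.4 CPM, and Acvr1c stayed under 0.3 CPM.

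Of the 4 type II receptors, 3 lay lower in both AKK libraries, where 24.7% of all genes did. Tgfbr2, which starts TGF-beta signalling, read 76.8 and 73.9 CPM in PBS and 32.6 and 60.6 in AKK, lower in 2 of 2 AKK libraries (log2 fold change -0.69, SE 0.31, edgeR adjusted p = 0.355). Without AKK 1 the log2 fold change was -0.31. Bmpr2, the BMP type II receptor and the most abundant of its class in CPM, read 212 and 188 CPM in PBS and 104 and 164 in AKK (log2 fold change -0.58, edgeR adjusted p = 0.366). Acvr2a read 38.6 and 34.5 CPM against 30.7 and 32.2, and Acvr2b overlapped. The co-receptor betaglycan (Tgfbr3), which presents TGF-beta2 and inhibin, read 4.42 and 1.24 CPM in PBS and 0.832 and 0.856 in AKK (log2 fold change -1.75, SE 0.69, unadjusted p = 0.0454, edgeR adjusted p = 0.319). Most of that difference lay in PBS 1, without which the log2 fold change was -0.56.

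Of the SMADs, the common partner Smad4 had the smallest p. It read 143 and 155 CPM in PBS and 91.9 and 109.7 in AKK, lower in 2 of 2 AKK libraries (log2 fold change -0.56, SE 0.19, unadjusted p = 0.0267, edgeR adjusted p = 0.284). Smad2 read 73.6 and 72.7 CPM in PBS and 44.1 and 56.9 in AKK (log2 fold change -0.53, SE 0.20, unadjusted p = 0.038, edgeR adjusted p = 0.304). Smad3, the most abundant, read 307 and 319 CPM in PBS and 171 and 295 in AKK, lower in both, and its log2 fold change of -0.43 became -0.08 without AKK 1. Of the BMP branch, Smad5 read 218 and 149.5 CPM in PBS and 84.8 and 138 in AKK (log2 fold change -0.72, edgeR adjusted p = 0.346). Smad1 read 64.7 and 60.2 against 43.9 and 61.2 and overlapped, and Smad9 had 0 reads in each PBS library, 3 in AKK 1 and 2 in AKK 2. In each of these, AKK 1 was lower than AKK 2 except for Smad9.

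Neither inhibitory SMAD lay lower in AKK. Smad7, a feedback target of TGF-beta, read 79.8 and 96.5 CPM in PBS and 88.1 and 110.4 in AKK and overlapped. Smad6, the feedback inhibitor of the BMP branch, read 1.46 and 2.21 CPM in PBS and 2.53 and 5.57 in AKK, higher in 2 of 2 AKK libraries (log2 fold change 1.14, SE 0.54, edgeR adjusted p = 0.373). Without AKK 2 the log2 fold change was 0.46. The length-scaled ratio of Smad7 to Smad3, chosen after the values were seen, was 0.319 and 0.371 in PBS and 0.633 and 0.459 in AKK.

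**Figure D5:**
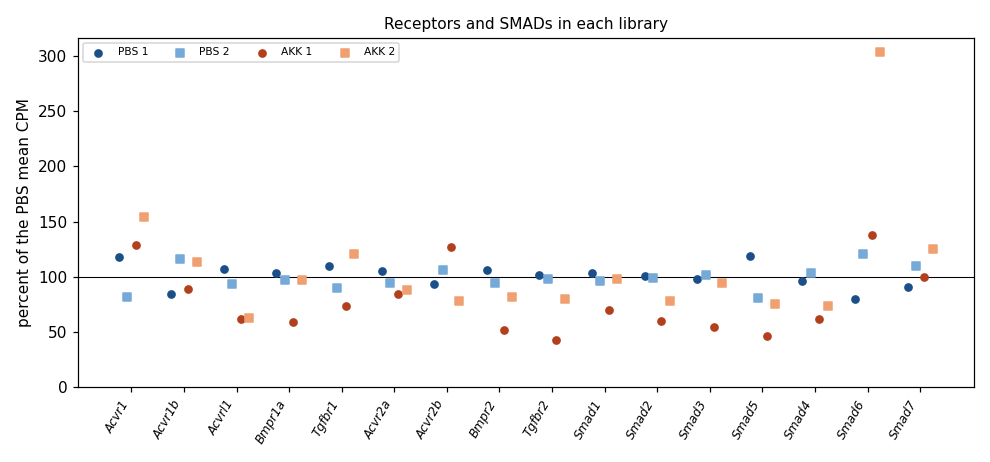
Points give each library's CPM as a percentage of the PBS mean for the 16 type I receptors, type II receptors and SMADs with a mean of at least 1 CPM. The co-receptor Tgfbr3 is not drawn. AKK 1 is the lowest of the 4 libraries in 11 of the 16, and Smad6 in AKK 2 is the highest point at 303%.

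Genes that respond to TGF-beta lay in both directions. Of 32 target genes, all passed the filter, 14 were positive and 18 negative, with a median log2 fold change of -0.04 (0.02 over all genes). In edgeR 0 passed, 3 were higher at an unadjusted p under 0.05 (Ccn1, Tagln and Cthrc1) and 3 lower (Postn, Twist1 and Lrrc15), where 6.7% and 8.62% of all genes were. DESeq2 called Ccn1 and those 3 lower genes. The matricellular gene Ccn1 read 52.3 and 49.96 CPM in PBS and 108 and 140.1 in AKK (log2 fold change 1.28, SE 0.20, edgeR adjusted p = 0.182, DESeq2 adjusted p = 0.000209). The matrix gene Postn read 255 and 111 CPM in PBS and 11.1 and 36.8 in AKK, and the myofibroblast gene Lrrc15 15.7 and 11.8 against 0.230 and 0.634. Twist1, a transcription factor of mesenchymal cells, read 4.07 and 1.54 CPM against 0.177 and 0.274. Postn and Lrrc15 are also on the fibroblast list. Further textbook targets were named after their values were seen. Pmepa1 read 461 and 302 CPM in PBS and 397 and 661 in AKK and overlapped. Skil read 172 and 166 CPM against 83.1 and 154, lower in both AKK libraries (edgeR adjusted p = 0.457).

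Of 16 BMP targets, 13 passed the filter, with 6 positive, 7 negative and a median of -0.03. The median was 0.72 without PBS 1 and -0.41 without PBS 2. At an unadjusted p under 0.05, 2 were higher (Id1 and Hamp) and 1 lower (Msx1), where 6.7% of all genes were higher and 8.62% lower. In edgeR 0 passed the adjusted threshold. DESeq2 called 1, Hamp (DESeq2 adjusted p = 0.0471), as higher, where 2.04% of all genes were. Hamp passed the filter through its AKK reads alone, and Msx1 through its PBS reads alone (39 and 18, against 9 and 5 in AKK). The direction of both was fixed by this, so these counts are a description. Id1, the classic BMP target, read 21.99 and 32.4 CPM in PBS and 70.9 and 37.1 in AKK (log2 fold change 0.99, SE 0.36, edgeR adjusted p = 0.298). Hamp, the hepcidin gene of hepatocytes, had 0 reads in each PBS library, 917 in AKK 1 and 27 in AKK 2, with the hepatocyte markers also highest in AKK 1. Msx1 read 0.731 and 0.378 CPM against 0.159 and 0.0856, and Rgma, a BMP co-receptor, 10.6 and 6.77 against 5.13 and 4.23.

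Of 26 genes for activation and matrix storage, 25 passed the filter, with 1 higher and 6 lower at an unadjusted p under 0.05 and a median of -0.28. The lower ones included the fibrillin Fbn2 (7.29 and 3.41 CPM in PBS, 1.22 and 0.771 in AKK), Emilin2 (14.3 and 10.3 against 5.34 and 5.74) and the TGF-beta-binding proteoglycan Aspn (15.9 and 6.58 against 0.372 and 1.08). The higher one was plasminogen (Plg), made by hepatocytes, with 0 CPM in PBS 1, 0.0631 in PBS 2 and 12.6 and 2.65 in AKK. Plg, like Hamp, passed the filter through its AKK reads alone, so its direction was fixed. Fmod, 1 of the 6 lower, passed through its PBS reads alone (68 and 11, against 7 and 0 in AKK), so its direction was fixed too. Across all genes 6.7% were higher and 8.62% lower at that p. Of 31 further modulators and co-receptors, 18 passed the filter, with 1 higher (Htra3) and 2 lower (Nbl1 and the receptor Neo1) and a median of -0.04. Of 32 intracellular regulators, 31 passed, with 2 higher, 6 lower and a median of -0.34. In 17 of the 31 both AKK libraries lay below both PBS libraries, where 24.7% of all genes did. In 5 they lay above, where 26.7% did. The 2 higher were Tab1 and Usp11, which read 29.2 and 26.5 CPM in PBS and 41.9 and 47.1 in AKK. Zfyve9 (SARA), which anchors SMAD2 and SMAD3 at endosomes, read 40.4 and 35.1 CPM in PBS and 19.7 and 24.7 in AKK. In these 3 lists 0 genes passed in edgeR. Of the 25 activation and matrix genes, DESeq2 called 1 higher (Plg) and 4 lower (Fbn2, Emilin2, Mmp9 and Aspn). Across all genes it called 2.04% higher and 2.98% lower. It called 0 genes in the other lists of this paragraph.

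The PBS libraries also differed from each other. PBS 1 exceeded PBS 2 by over 2-fold in 10 of the 46 members (21.7%, against 7.59% of all genes), and PBS 2 exceeded PBS 1 in 2 (4.35%, against 7.28%). Fstl1, Tgfb2, Ltbp2, Ltbp4 and Tgfbr3 were among the former and Fstl3 and Gdf15 were the latter. PBS 1 also held the most skeletal muscle and fibroblast marker reads, and the part of those cells in these values was not tested.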

How the data were processed

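Raw read counts were deposited by the authors, laid out as STAR writes gene counts. STAR 2.5.2 and RSEM 1.2.31 are named in the submitters' processing notes; genome build and annotation: not given in the sources used here. Counts from each gene's own strand, which held 95.4 to 96.2% of strand-assigned reads, was used. Such tables leave out multimapping and ambiguous reads, and the summary rows that name no gene, 27.6 to 31.4% of reads, stayed out of library sizes and tests.

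AKK was compared with PBS by the two-sided quasi-likelihood test of edgeR 4.0.16 (legacy glmQLFit, R 4.3.3), with TMM scaling, filterByExpr, group as the only term, prior count 0.125, and Benjamini-Hochberg adjustment over 17479 genes. SEs come from the F statistic. DESeq2 1.42.0 and limma 3.58.1 were alternatives. The edgeR test was also run on simulated counts, where not all of the smaller changes were called. The changed genes there were held above the level of several members, so its power for those members was not tested. Symbols were matched by identifier without version (48058 of 48526), exon lengths are unions from GENCODE M21, and upstream sequences are RefSeq's.

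Members and lists were chosen with earlier results of these data known. Values per library are given for the TGF-beta ligands and receptors, all SMADs, members with an unadjusted p under 0.05, a DESeq2 call or a separated log2 fold change of at least 1, and the most abundant member of each role. From each pathway list up to 4 genes with the smallest p could be named. Further names and per-library values were chosen after their values were seen. 1 member that passed the filter is counted but not reported here by name, in text or figures. The names of the deposited tables differ in pattern between groups, and the labels name no batch and do not say why. Any difference in handling between the groups could not be told apart from the feeding.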

Additional observations from a re-analysis of the deposited data

How the results depend on the processing

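The number of genes called over all genes, 1 in the reported fit, was 3 with upper-quartile scaling, 631 with no filter on low counts, 878 with DESeq2, 0 with limma-voom (2509 at an unadjusted p under 0.05), 4 with the edgeR 4 form and 3 at an adjusted p under 0.1, and ranged from 0 to 324 when 1 library was left out. It was 0 without AKK 1 or AKK 2, 279 without PBS 1 and 324 without PBS 2. Members called, 0 in the reported fit (8 at an unadjusted p under 0.05), were 3 with no filter (Grem1, Inhbe and Ltbp2), 5 with DESeq2, and 0 to 2 with a library left out, the 2 being Grem1 and Ltbp2 without PBS 1. Such fits take a group's single library to vary as the other group does. The replicate number as a block, with 2 numbers shared by both groups, gave 209 genes and 2 members (Grem1 and Inhbe). Deviations of same-numbered libraries from their group means correlated at -0.04 across genes, so the numbers are not taken as pairs.

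Of 28 members named by rule, 21 kept their direction under all alternatives run. Members near 0 turned: Tgfb3 was 0.0262 with upper-quartile scaling, 0.0287 with the block, 0.0484 with unstranded counts and 0.0217 with limma-voom, and Tgfbr1 was 0.00226 with upper-quartile scaling. With libraries left out the log2 fold change ranged from -0.43 to 0.51 for Tgfb3, -0.45 to 0.28 for Tgfbr1, -0.78 to 1.14 for Tgfb2, -0.0449 to 0.22 for Tgfb1, -0.00663 to 0.33 for Smad7, -0.0261 to 0.28 for Ltbp3 and -0.0485 to 0.80 for Amh. The cause was not tested. Inhbe gave no value without AKK 1 or with a filter of 1 CPM in 2 libraries. Genes with under 3 reads per library are beyond the depth.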
